A study of Mus musculus with 6 samples.

Results

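The 10 genes described here encode the MHC class II molecules of the mouse, the proteins that load them with peptide and the factor that switches them on. They are H2-Aa, H2-Ab1, H2-Eb1, H2-DMa, H2-DMb1, H2-DMb2, H2-Oa, H2-Ob, Cd74 and Ciita, and they were taken as every non-control array probe that carries one of these gene names, which gave 20 probes of 56605. The samples were whole kidneys of female mice at 6 months of age, 1 array per mouse. The MRL group held 3 MRL/MpJ mice, and the LPR group held 3 mice labelled MRL/MpJ-Fas lpr/lpr, called MRL/lpr in the sample names. Both groups share the MRL/MpJ background, and the groups differ by the lpr mutation of Fas, a death receptor that limits lymphocyte survival. The mutation is in the germ line, so Fas is altered in every cell of the LPR mouse and not in the kidney alone. It is an insertion into an intron that disturbs splicing, which no probe measures directly. The brighter Fas probe had -0.35, -0.27 and -0.04 in the MRL mice and -0.47, -1.23 and -0.36 in the LPR mice and did not pass (adjusted p = 0.235), and the other, well above background on the 3 LPR arrays alone, was at least 1.47-fold higher in LPR (adjusted p = 0.0337). An adjusted p printed beside an "at least" fold, here and below, belongs to the fitted group difference and does not test that fold. MRL mice develop autoimmune kidney disease late in life, and the lpr mutation makes it early and severe. The study compared the groups to find the transcripts that accompany the immune cell clusters around renal vessels.

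MHC class II molecules are pairs of an alpha and a beta chain that show peptides from engulfed material to CD4+ T cells. Dendritic cells, macrophages and B cells make them constantly, and epithelial and endothelial cells can make them under interferon gamma. The invariant chain, Cd74, holds the peptide groove closed until proteases such as cathepsin S cut it down to a short remnant. The DM protein then exchanges this remnant for antigenic peptide, and the DO protein holds DM back. Ciita, the class II transactivator, does not bind DNA itself and acts through factors that sit on the promoters of these genes.

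All 10 genes were higher in LPR kidneys than in MRL kidneys. Of the 20 probes, 16 were above the background filter and were tested, and all 16 were higher at an adjusted p under 0.05 in a limma fit across 39924 probes, of which 6.54% were called higher and 6.07% lower. By the brightest tested probe of each gene, 10 of 10 genes were higher, against 7.12% of 25805 genes called higher and 5.39% called lower. The lowest LPR value exceeded the highest MRL value for all 16 probes, which held for 11.1% of all tested probes. Of the 16, 2 passed the filter through the LPR arrays alone, which favours a difference. With tests limited to probes above background on all 6 arrays, 14 of 14 member probes and 9 of 9 genes were higher. The median change over the 10 genes was 3.46 on the log2 scale, while the median over all tested probes was -0.13. On 14 of the 16 probes the signal was above background on all 6 arrays, and there the change ranged from 3.65-fold to 13.5-fold. Values below are log2 signals relative to the 75th percentile of the array, so 0 is that percentile. Levels are not compared between probes, because each probe has its own brightness. Each group has 3 mice, and errors of group means are SDs. In whole kidney, more class II cells and more RNA per cell cannot be told apart.

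**Figure D1:**
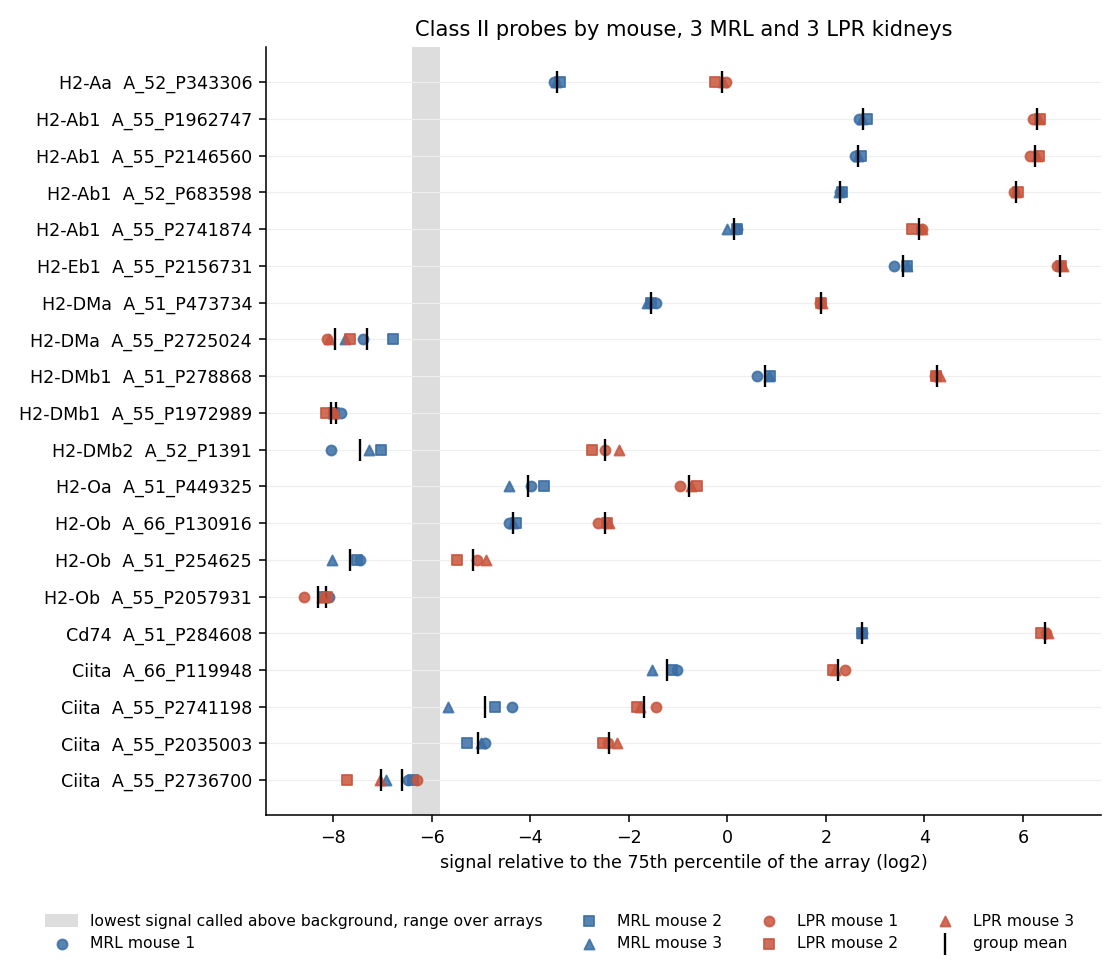
Signal of each of the 20 class II probes in each mouse, as log2 relative to the 75th percentile of the array (horizontal axis), with MRL mice in blue, LPR mice in red and black bars for group means. The grey band is the range over arrays of the lowest signal called above background. On 16 probes every LPR mouse lies to the right of every MRL mouse, and the other 4 probes lie at or below the band in all mice.

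The alpha and beta chains form the class II molecule on the cell surface. H2-Ab1, the beta chain of the I-A molecule, was measured by 4 probes that all gave a similar change. On its brightest probe (A_55_P1962747, mm9 chromosome 17, bases 34406296 to 34406355) the MRL mice had 2.67, 2.83 and 2.73 and the LPR mice 6.20, 6.35 and 6.33. The groups were far apart and the mice within a group were close together. The change was 3.55 ± 0.10 (SE) on the log2 scale or 11.7-fold, with an adjusted p of 9.58e-06. The other 3 probes gave changes of 3.60, 3.56 and 3.75, each within the 95% confidence intervals of the others. A pair of these probes (A_55_P1962747 and A_55_P2146560) overlaps by 51 bases and differs at 1 of them, written C42T from the second probe to the first and counted from the 5′ end of the second probe. Their changes of 3.55 and 3.60 differed by less than either SE.

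H2-Aa, the alpha chain of I-A, was measured by 1 probe (A_52_P343306, chromosome 17, bases 34421285 to 34421344). Its values were -3.52, -3.41 and -3.47 in the MRL mice and -0.02, -0.25 and -0.09 in the LPR mice. The change was 3.35 ± 0.11 (SE) or 10.2-fold (adjusted p = 1.16e-05). H2-Eb1, the beta chain of the I-E molecule, lies on the same chromosome at bases 34453075 to 34453134 (A_55_P2156731). The MRL mice had 3.39, 3.65 and 3.65 and the LPR mice 6.69, 6.76 and 6.81. The change was 3.19 ± 0.12 (SE) or 9.15-fold (adjusted p = 1.45e-05). The 95% confidence interval of H2-Eb1, 2.92 to 3.47, overlapped those of H2-Aa and of H2-Ab1. The differences between these chains were not tested. With normexp, another background correction, the change of H2-Aa was 2.57, beside 3.54 for H2-Ab1 and 3.21 for H2-Eb1.

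Class II genes share a promoter layout known as the X and Y boxes, where the RFX and CREB proteins bind the X box and NF-Y binds the Y box, which carries the letters of an inverted CCAAT box. RefSeq promoter windows (GRCm38.p6, 250 bases before to 50 after a gene start) were at hand for 7 of the 10 genes, with 2 windows for H2-DMa. The letters searched, on both strands, were CNNNNAAC for the X core and GATTGG for the Y box. The Y box had to start 30 to 40 bases after the start of the X core. These letters and this distance were set after these promoters had been looked at. On its own the X core is found in 81.6% of all 32851 windows and the Y box in 16.1%, while the ordered pair is found in 0.536%. The pair was present in 6 of the 8 windows, 1 each for H2-Aa, H2-Eb1, H2-DMb1, H2-DMb2, H2-Oa and H2-Ob, always on the strand of the gene. It was not in either window of H2-DMa, whose change was 3.45. These windows are of the C57BL/6 reference, and the promoters of the MRL mice measured here were not read and may differ. The stretches around the pair are printed 5′ to 3′ on the strand of the gene. The X core and the Y box are in capitals, to show what the reference promoters of these jointly higher genes share:
H2-Aa, chr17:34287857-34287917, minus strand: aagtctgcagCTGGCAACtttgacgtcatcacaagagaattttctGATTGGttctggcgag
H2-Eb1, chr17:34305763-34305822, plus strand: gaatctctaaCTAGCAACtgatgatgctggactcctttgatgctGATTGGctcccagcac
H2-DMb1, chr17:34153084-34153144, plus strand: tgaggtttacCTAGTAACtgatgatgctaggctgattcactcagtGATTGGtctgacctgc
H2-DMb2, chr17:34145113-34145173, plus strand: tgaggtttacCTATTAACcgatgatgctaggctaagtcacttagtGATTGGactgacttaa
H2-Oa, chr17:34092290-34092350, plus strand: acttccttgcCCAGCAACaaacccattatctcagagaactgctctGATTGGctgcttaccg
H2-Ob, chr17:34238805-34238862, plus strand: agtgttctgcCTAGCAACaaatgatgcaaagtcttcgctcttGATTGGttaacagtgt

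From the start of the X core to the start of the Y box there were 35 bases in H2-Aa, H2-DMb1, H2-DMb2 and H2-Oa. There were 34 in H2-Eb1 and 32 in H2-Ob. The stretches of H2-DMb1 and H2-DMb2, neighbouring copies of the DM beta chain gene, were identical at 52 of 61 bases. Of 34 other genes of the class II pathway with a window, 1 held the pair, namely H2-Eb2, a further class II beta chain gene. Across the genome, 95 genes other than the members held the pair and were tested. Of them, 4 (4.21%) were called higher and 4 lower, with a median change of -0.09. Among all genes tested, 7.12% were called higher and 5.39% lower. A match of letters is a description and not a binding site. H2-Ob, with the smallest change among the members, is 1 of the 6 that carry the pair.

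The DM chains form the peptide exchanger of the endosome. H2-DMa, its alpha chain, had MRL values of -1.45, -1.56 and -1.63 and LPR values of 1.88, 1.90 and 1.92 on its probe A_51_P473734 (mm9 chromosome 17, bases 34274300 to 34274863). The 3 LPR mice were almost equal on this probe, with an SD of 0.017. The change was 3.45 ± 0.10 (SE) or 10.9-fold (adjusted p = 9.52e-06). H2-DMb1, the first beta chain, had MRL values of 0.60, 0.86 and 0.85 and LPR values of 4.22, 4.23 and 4.31 (A_51_P278868, bases 34297109 to 34297168), a change of 3.49 ± 0.11 (SE) or 11.2-fold (adjusted p = 1.20e-05). H2-DMb2, the second beta chain, was not well above background on any MRL array and was well above it on all 3 LPR arrays. Its values were -8.05, -7.04 and -7.27 in MRL and -2.49, -2.75 and -2.19 in LPR (A_52_P1391, bases 34284764 to 34284823). Set against the lowest MRL signal above background, it was at least 11-fold higher in LPR (adjusted p = 7.71e-05). H2-DMb1 and H2-DMb2 are near-identical copies, so transcripts of 1 may hybridise to the probe of the other.

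The DO chains form the DM inhibitor, which in mice is made mainly by B cells and some dendritic cells. H2-Oa, the alpha chain, had MRL values of -3.98, -3.73 and -4.43 and LPR values of -0.97, -0.61 and -0.73 (A_51_P449325, bases 34232033 to 34232092). The change was 3.28 ± 0.20 (SE) or 9.69-fold (adjusted p = 1.06e-04), and 2.12 with normexp. H2-Ob, the beta chain, changed less. On its brightest probe (A_66_P130916, bases 34380481 to 34380849) the MRL mice had -4.44, -4.29 and -4.35 and the LPR mice -2.62, -2.45 and -2.40. The groups did not overlap, and the change was 1.87 ± 0.11 (SE) or 3.65-fold (adjusted p = 9.44e-05), and 0.97 with normexp. The upper end of its 95% confidence interval, 2.13, lay below the lower end for every other member gene by its brightest probe, the nearest being 2.81 for H2-Oa. A second H2-Ob probe (A_51_P254625, bases 34378131 to 34378190) was above background in LPR alone, with LPR values of -5.09, -5.48 and -4.90. It was at least 1.72-fold higher in LPR. Its fitted change, which rests on MRL values not well above background, was 2.51. The 95% confidence interval of that fit, 2.02 to 3.00, overlapped that of H2-Oa. The adjusted p of this fitted change, not of the bound, was 4.28e-04, but 0.136 under the normexp background correction. With the mean over the tested H2-Ob probes the change was 2.19, so its size depends on the probe.

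Cd74, the invariant chain, had the largest change by brightest probe among the genes measured in both groups. It lies on another chromosome than the class II region (A_51_P284608, mm9 chromosome 18, bases 60972075 to 60972132). The MRL mice had 2.74, 2.73 and 2.74 and the LPR mice 6.47, 6.37 and 6.51. The MRL values lay within an SD of 0.0085. The change was 3.71 ± 0.097 (SE) or 13.1-fold (adjusted p = 7.70e-06), and its interval, 3.48 to 3.94, overlapped that of H2-Ab1.

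Ciita, the transactivator, lies on chromosome 16 and was measured by 4 probes, of which 3 were tested. On the brightest (A_66_P119948, mm9 bases 10526458 to 10526517) the MRL mice had -1.02, -1.12 and -1.52 and the LPR mice 2.38, 2.15 and 2.19. The change was 3.46 ± 0.16 (SE) or 11-fold (adjusted p = 3.54e-05). The probe A_55_P2741198 (bases 10525904 to 10525963) gave a change of 3.24 ± 0.32 (SE), with a wider spread in MRL, where mouse 3 had -5.68 and the others -4.37 and -4.71. The probe A_55_P2035003 (bases 10492271 to 10492330), designed on another transcript, gave -4.92, -5.28 and -5.00 in MRL and -2.42, -2.53 and -2.24 in LPR. Its change was 2.67 ± 0.14 (SE) or 6.37-fold, and its interval, 2.34 to 3.00, lay below that of the brightest probe, 3.09 to 3.84. The probe A_55_P2736700 was not well above background on any array. The same was true of 1 probe each of H2-DMa, H2-DMb1 and H2-Ob, designed on other transcript models than the probes that were tested, and the values of these 4 untested probes ranged from -8.60 to -6.31.

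**Figure D2:**
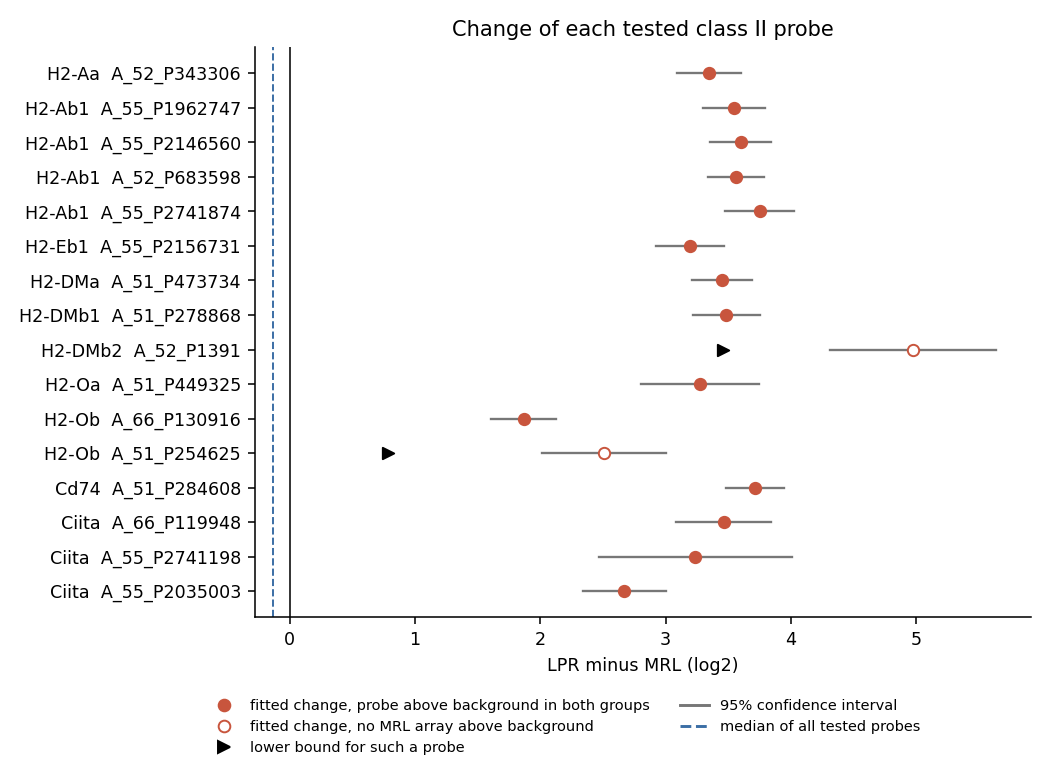
Change of each of the 16 tested probes, as LPR minus MRL on the log2 scale (horizontal axis), with grey lines for the 95% confidence interval and the dashed line for the median of all tested probes (-0.13). Open circles are the probes with no MRL array above background, whose lower bounds are the black triangles. Most probes lie between 3.19 and 3.75, and the H2-Ob probe measured in both groups lies at 1.87.

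The members moved by similar amounts in each LPR mouse. Over the 9 genes measured in both groups, the median value above the MRL mean was 3.44, 3.43 and 3.41 in LPR mice 1, 2 and 3, and -0.05, 0.09 and -0.01 in MRL mice 1, 2 and 3. No mouse lay above or below its group mean for all 10 genes. MRL mouse 2 leaned high, with deviations from the MRL mean of -0.01 to 0.42. LPR mouse 3 had deviations from the LPR mean of -0.05 to 0.29. To compare the size of the changes, the difference between groups of members was taken within each array, by brightest tested probe. The groups were H2-Aa, H2-Ab1 and H2-Eb1 (alpha and beta chains), H2-Oa and H2-Ob (DO chains), and H2-DMa and H2-DMb1 (DM chains). H2-DMb2 was left out of the DM chains here. In all, 5 such differences were tested with an exact two-sided permutation test over the 6 mice. With 3 mice against 3 this test cannot give a p below 0.1, and the adjusted p is then 0.125. The change of the DO chains minus that of the DM chains was -0.90 (log2), and minus that of the alpha and beta chains it was -0.79, with no overlap between the groups (exact permutation p = 0.1 for each). Of the DO pair, H2-Oa changed by 3.28 and H2-Ob by 1.87. The change of Cd74 minus that of the alpha and beta chains was 0.35, and for the DM chains it was 0.11, again without overlap (exact permutation p = 0.1 for each). For Ciita it was 0.10 with overlapping groups (exact permutation p = 0.8). With normexp the DO difference was -1.74 to the DM chains and -1.56 to the alpha and beta chains, and the Cd74 difference was 0.61. Without MRL replicate 3 the Ciita difference was -0.06.

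The 8 members other than Cd74 and Ciita lie within 221 kb of chromosome 17, among genes of other function. From 100 kb below the lowest to 100 kb above the highest of their probes (mm9, 34132033 to 34553134), the array names 21 further genes, and 15 of them were tested. Of these, 7 were higher, 0 lower and 8 did not pass, with a median change of 0.25. Over all genes tested, 7.12% were called higher and 5.39% lower. The 7 were H2-Eb2 and H2-Ea-ps, 2 further class II genes, and 5 genes of class I antigen presentation, namely H2-K1, Psmb8, Psmb9, Tap1 and Tap2, with changes from 1.56 to 3.40. The 8 that did not pass, named here after their values were seen, were Ring1, H2-Ke6, Slc39a7, Rxrb, Col11a2, Brd2, Btnl2 and Gm15320, with changes from -0.47 to 0.25 and adjusted p from 0.221 to 0.812. Brd2, a chromatin reader gene between H2-Oa and H2-DMa, changed by 0.05 ± 0.13 (SE), beside 3.28 and 3.45 for the genes on its sides.

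**Figure D3:**
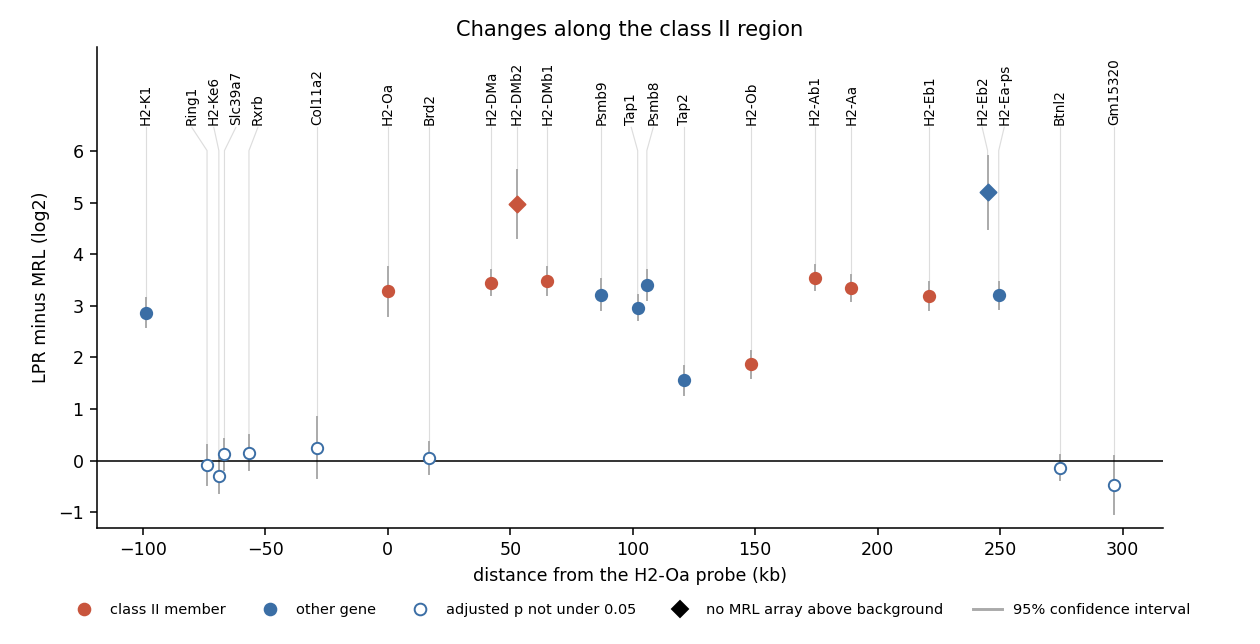
Change of each tested gene of the class II region (vertical axis, LPR minus MRL on the log2 scale, brightest tested probe, with the 95% confidence interval) by distance from the H2-Oa probe in kb. Red points are members, blue points other genes, open points did not pass the test and diamonds had no MRL array above background. The 8 genes that did not pass lie between -0.47 and 0.25, and the antigen presentation genes lie above 1.5.

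The rest of the class II pathway was read from a list of 44 genes grouped by role. Of these, 18 were higher, 0 lower and 26 did not pass, beside 7.12% of all genes tested called higher and 5.39% lower. The median change of the list was 0.34, against -0.12 over all genes tested. Among the other class II genes, H2-Eb2 was not well above background in MRL and was at least 10.8-fold higher on its brightest probe (adjusted p = 8.57e-05), while its other probe, also above background in LPR alone, was at least 1.12-fold higher (adjusted p = 0.0383). H2-Ea-ps, the alpha chain of I-E, which is a pseudogene in the C57BL/6 reference, changed by 3.20 ± 0.11 (SE), or 9.19-fold.

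Of 13 genes for transcription of class II genes, 5 were higher and 8 did not pass. The factors that bind the X and Y boxes were among the 8. Rfx5, Rfxap and Rfxank, the RFX complex, Nfya, Nfyb and Nfyc, the NF-Y complex, and Creb1 changed by -0.24 to 0.10 on their brightest probes. On those probes the adjusted p was 0.159 to 0.959, and the 95% confidence intervals together reach from -0.56 to 0.54. None of the 19 tested probes of these 7 genes passed, beside 3 of 3 for Ciita. Over the 19, changes ran from -0.44 (Creb1) to 0.31 (Nfya), and the lowest adjusted p was 0.0894 (Nfyc). These 7 were named after their values were seen. The 3 largest changes of this role were those of Irf4, a lymphocyte factor that changed by 3.43 ± 0.36 (SE), of Spi1, the myeloid and B cell factor PU.1, which was at least 5.16-fold higher, and of Irf1, an interferon-induced activator, at 2.44 ± 0.13 (SE). Irf8 and Prdm1, a repressor of Ciita in plasma cells, were the other 2 that rose, by 1.58 and 2.15.

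Interferon gamma is the main inducer of Ciita outside professional antigen presenting cells. Of its 6 signalling genes in the list, 3 were higher. Ifng had MRL values of -7.92, -6.62 and -6.35, none well above background, and LPR values of -1.83, -1.96 and -1.89, and it was at least 16.5-fold higher (adjusted p = 2.72e-04). Socs1, the feedback inhibitor, changed by 2.76 ± 0.16 (SE), and Ifngr2, a chain of the receptor, by 0.62 ± 0.098 (SE). Ifngr1, Jak1 and Jak2 did not pass.

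Of the 10 genes for invariant chain proteolysis and antigen processing, 1 was higher. Ctss, cathepsin S, which makes the last cuts of the invariant chain in B cells and dendritic cells, had MRL values of 1.56, 1.71 and 2.77 and LPR values of 5.64, 5.46 and 5.52. MRL mouse 3 lay above the other MRL mice and below every LPR mouse. The change was 3.53 ± 0.31 (SE) or 11.5-fold (adjusted p = 5.40e-04). The other 9 genes, by brightest probe, changed by -0.15 to 0.37, with adjusted p from 0.0862 to 0.961. They were Ctsl, Ctsb, Ctsd, Ctsh, Ctsz, Lgmn, Ifi30, Sppl2a and Cst3, and were named after their values were seen. Most of them are lysosomal proteases, Ifi30 is a thiol reductase and Cst3 encodes the secreted protease inhibitor cystatin C.

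The remaining roles hold genes that meet class II molecules at the cell surface. Cd83, which keeps class II on the surface, changed by 2.71 ± 0.15 (SE), while March1 and March8, ubiquitin ligases that remove it, had changes of -0.18 and -0.08 on their brightest probes and did not pass. The other March8 probes had changes of -0.69 (adjusted p = 0.0520) and -0.14 (adjusted p = 0.421). Lag3, an inhibitory class II receptor of T cells, changed by 3.94 ± 0.20 (SE) or 15.4-fold on its brightest probe. That probe was well above background on 2 of 3 MRL arrays, so its fold rests on MRL values near background. The other Lag3 probe, above background in LPR alone, was at least 5.46-fold higher (adjusted p = 0.00645). Cd4, the coreceptor for class II, changed by 0.53 ± 0.12 (SE) on its brightest probe (adjusted p = 0.0356), and a probe above background in LPR alone was at least 1.57-fold higher (adjusted p = 3.98e-04). Its remaining probe had a change of 0.25 and did not pass (adjusted p = 0.347). Of the receptor complex in which Cd74 binds the cytokine Mif, Cd44 changed by 3.15 ± 0.14 (SE) and Cxcr4 by 2.06 ± 0.14 (SE), while Mif, Ddt and Cxcr2 did not pass. Of the costimulators, Cd86 changed by 2.47 ± 0.22 (SE) and Cd40 by 0.84 ± 0.13 (SE), while none of 3 Cd80 probes passed. Their changes were -0.11 on the brightest (adjusted p = 0.581), 0.66 (adjusted p = 0.0528) and 2.32 on a probe above background on 2 of 3 MRL arrays (adjusted p = 0.0922).

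**Figure D4:**
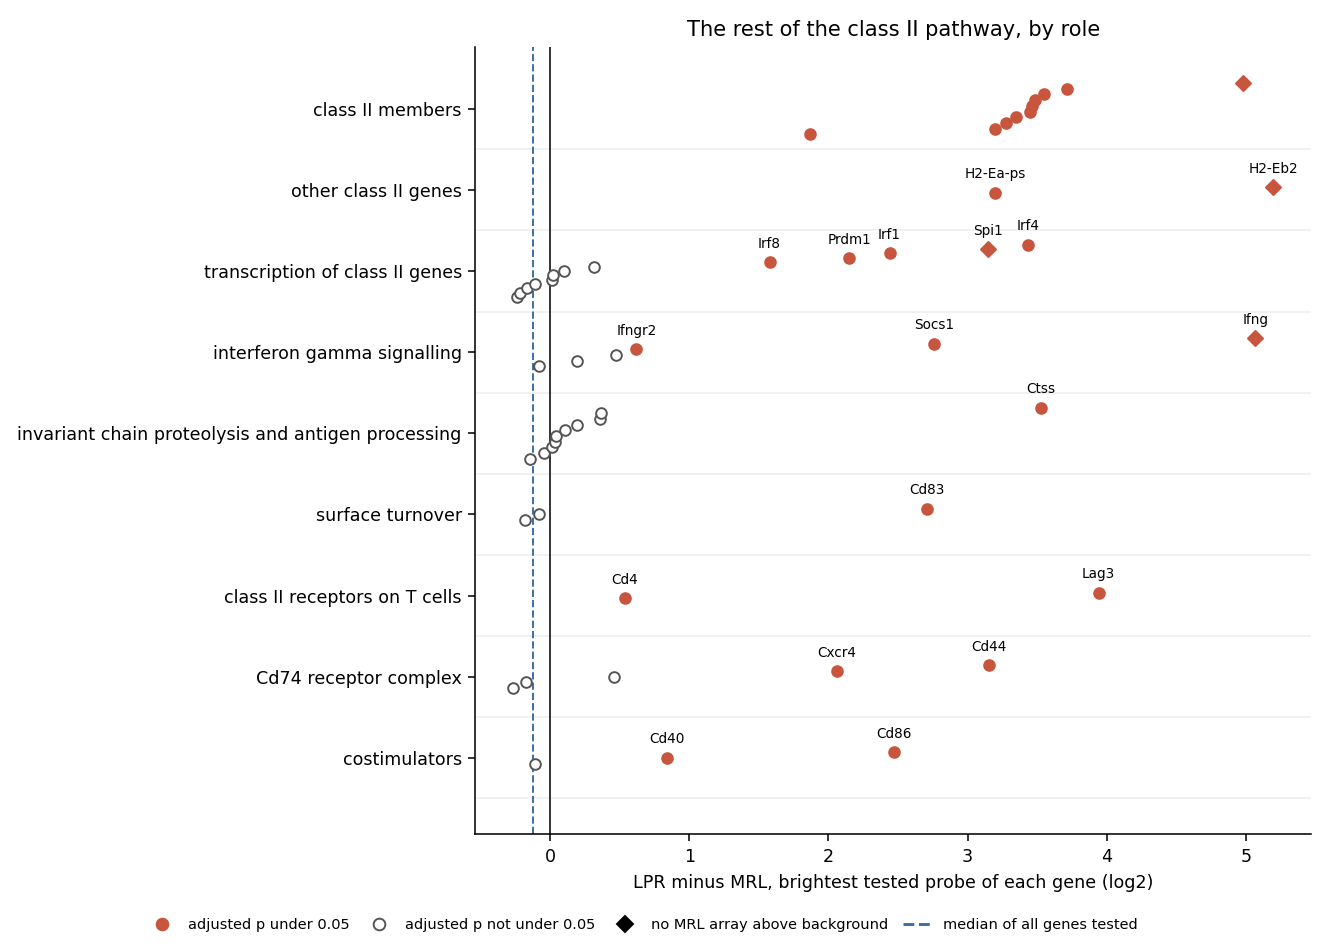
Change of each gene of the pathway list by role (horizontal axis, LPR minus MRL on the log2 scale, brightest tested probe), with the 10 members in the top line. Filled points passed the test, open points did not, and diamonds had no MRL array above background. The 18 filled points of the list all lie above 0, and in the line for proteolysis Ctss at 3.53 stands apart from 9 open points between -0.15 and 0.37.

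Markers of the cells that carry class II were measured on the same arrays, and their part in the rise was not tested. Beside the counts below, 7.12% of all genes tested were called higher and 5.39% lower. Sums over a marker list are of linear signals in units of the 75th percentile of the array, and weight each marker by the brightness of its probe. The signals of 9 macrophage markers were 17.96 to 21.6 in MRL and 57.0 to 63.9 in LPR, and 8 of the 9 were higher. For 7 tested B cell markers the sum was 1.66 to 1.87 in MRL and 4.50 to 5.74 in LPR, with 3 higher and 4 not passing. For 9 dendritic cell markers, 6 were higher, but the sums overlapped, at 94.1 to 114 in MRL and 94.3 to 103 in LPR. Mouse T cells do not make class II, and for 6 T cell markers the sum was 1.76 to 2.04 in MRL and 12.01 to 14.4 in LPR, with 5 higher. Sums were also taken without the brightest probe of each list, a step added after the values were seen. Without Csf1r the macrophage sum was 5.02 to 7.93 in MRL and 38.6 to 43.7 in LPR, and without Cd79b the B cell sum was 1.12 to 1.48 and 1.82 to 2.00. Without Siglech, which had log2 values of 6.50 to 6.82 in the 6 mice, the dendritic cell sum was 0.716 to 0.785 in MRL and 3.69 to 4.15 in LPR, and without Cd3e the T cell sum was 1.02 to 1.18 and 9.35 to 11.4. The B cell marker Blk was above the filter in neither group, and Xcr1 was above background in LPR alone. The other tested markers of these 4 lists were above background in both groups. Of 9 kidney markers, all were above background in all mice, 0 were higher, 1 (Lrp2, by -0.39) was lower and 8 did not pass, with sums of 769 to 810 in MRL and 626 to 679 in LPR. Of 5 endothelial markers, 1 (Kdr, by -0.57) was lower and 4 did not pass. None of 4 fat markers passed, but their median change was -1.83 and their sums did not overlap, at 4.11 to 6.09 in MRL and 0.553 to 3.02 in LPR. LPR mouse 3 was the lowest, with log2 values of -3.06 for Adipoq, -2.34 for Cidec and -5.76 for Plin1, beside -0.03, 0.58 and -3.37 in the next lowest mouse for each gene. The part of fat in the members' values was not tested.

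The genes whose pattern over the 6 mice came closest to the members were Psmb8, Lck, Spib, Gimap3 and Tbc1d10c. Likeness was the root mean square difference in log2 units between the values of a gene minus its MRL mean and the median of the same profile over the members, among 35993 probes above background on all arrays. It was 0.088 for Psmb8, an immunoproteasome subunit in the class II region, 0.097 for Lck, the T cell kinase, and 0.116 for Spib, a B cell and plasmacytoid dendritic cell factor. It was 0.118 for Gimap3, a GTPase of lymphocytes, and 0.119 for Tbc1d10c, a lymphocyte signalling inhibitor. Among the members, which set that median, it was 0.070 for H2-DMb1, 0.086 for H2-DMa, 0.089 for H2-Ab1 and 0.096 for H2-Aa. It was 0.179 for Ciita, 0.189 for H2-Eb1, 0.202 for Cd74 and 0.248 for H2-Oa, while H2-Ob lay at 1.12 and H2-DMb2, with no MRL array above background, at 1.13.

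All 6 arrays came from 1 slide, with the 3 MRL mice and LPR mouse 1 in its first row and LPR mice 2 and 3 in its second row. Within the first row the 16 probes had LPR minus MRL differences of 1.73 to 4.96, with a median of 3.45, and 16 of 16 were above 0. Within the first column (LPR mouse 2 minus MRL mouse 1) the median was 3.37 and within the second (LPR mouse 3 minus MRL mouse 2) it was 3.38, with 16 of 16 above 0 in each. Over all tested probes the median was -0.14 in the first row, -0.10 in the first column and -0.13 in the second. These differences rest on 1 LPR mouse each and have no test.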

How the data were processed

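Total RNA of whole kidney from 3 MRL and 3 LPR mice was hybridised to 1-colour (Cy3) Agilent arrays, 1 per mouse. The authors deposited the scanner intensity of each spot, background-subtracted and detrended by Agilent Feature Extraction 12.0.3.1, and a table of processed signal, which is that intensity divided by the 75th percentile of the array over all spots. Probe positions are those of the file headers (mm9). Here, log2 of the deposited intensity minus the 75th percentile of the non-control spots was used, outlier spots (73 to 90 per array) were left out, and probes well above background on at least 3 of 6 arrays were tested. No spot was saturated, and 69.6% to 73.5% of spots were well above background. Groups were compared with limma 3.58.1 (R 4.3.3; lmFit, eBayes, Benjamini-Hochberg over all tested probes, threshold 0.05, two-sided), which was tested on simulated data. A gene with several probes was represented by its brightest tested probe over the 6 arrays. A probe on no MRL array well above background got a bound. For it, each MRL value was the higher of the probe's own signal and the lowest signal well above background. The mean LPR value was set against the mean of these MRL values. The adjusted p beside a bound is that of the fit without this step.

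Members, gene lists and tests were chosen with earlier results of these data known. Named were all members, the up to 3 called genes with the largest change and no overlap between groups per role of the pathway list, and the 5 most similar genes. Outside this rule, and after their values were seen, Irf8, Prdm1, genes of the pathway that did not pass, neighbouring genes, single markers and Fas were named. 1 gene of the pathway is not reported here. The labels number the mice within a group and say nothing of litters. The number of arrays limits the precision. Alternatives were normexp (offset 50), quantile and median scaling, the 75th percentile of detected probes, the deposited processed signal, other filters, a floor, outliers kept, an intensity trend, slide row, slide column or replicate as a block, the methods' t-test with Benjamini-Hochberg adjustment, the mean over probes, and leaving out each mouse.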

Additional observations from a re-analysis of the deposited data

How the results depend on the processing

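The 10 member genes were recomputed under 21 alternatives, which gave 209 values, and all 209 had the same direction and call, with changes from 0.97 (H2-Ob with normexp) to 5.18 (H2-DMb2 without MRL replicate 2). Without each mouse in turn, 16 of 16 member probes and 10 of 10 member genes were called higher, 17 genes of the pathway list were higher in each case, and 1968 to 2378 of all probes were higher and 749 to 2270 lower. Counts over all probes moved more than those of the members. The tested member probes had all passed, with a highest adjusted p of 0.00102, so their count had little room to move. Against 2610 higher and 2423 lower, normexp gave 4542 lower, no filter on dim probes 1086 lower, the slide column as a block 1007 lower, the slide row as a block 1469 higher and 456 lower, and the methods' t-test 1732 higher and 1346 lower after adjustment (3595 and 7104 at an unadjusted p under 0.05). The cause was not tested. With normexp, 15 of 16 member probes were called. Normexp moved 4 members by over 1.5 times in fold: H2-Aa from 3.35 to 2.57, H2-Oa from 3.28 to 2.12, H2-Ob from 1.87 to 0.97 and the fitted change of H2-DMb2, which was 3.46 with a floor, from 4.98 to 1.54.

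With the replicate number as a block, 2208 probes were higher and 1107 lower, 16 of 16 member probes and 17 genes of the pathway list were higher, and the within-array differences had a sign flip p of 0.25 or 0.75, where 0.25 is the smallest 3 pairs can give. Deviations of same-numbered mice correlated at 0.115, 0.020 and 0.005, and those of differently numbered mice at -0.067 to 0.051. With 3 mice per group these values cannot show whether the numbers pair the mice.

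Without each mouse in turn, the DO minus DM difference was -0.99 to -0.82, DO minus the alpha and beta chains -0.90 to -0.72, Cd74 0.31 to 0.40, the DM chains 0.087 to 0.14 and Ciita -0.062 (without MRL replicate 3) to 0.25. The Ciita difference turned to -0.26 with the mean over all tested probes. The other differences kept their direction under every alternative run. Signal near background limits H2-DMb2, H2-Eb2, Ifng, Spi1, the second H2-Ob probe and the second Lag3 probe to bounds.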
